A study of Saccharomyces cerevisiae with 49 samples.

Results

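The 6 genes GPD1, GPD2, GUT1, GUT2, STL1 and FPS1 make, use and move glycerol in budding yeast (Saccharomyces cerevisiae). They were chosen by gene symbol among the 5540 named genes of an array table that held 6228 features in all, and each was read by 1 probe. The choice was made with results of these arrays known: GPD1 was picked for its fall after cdc28 release and FPS1 for a shift in phase between courses. Transcripts were followed on 49 arrays in 3 time courses. The alpha-factor course was 1 culture of BY4741 bar1- cells, which lack the protease that degrades the pheromone, held for 3 h with alpha factor, filtered, rinsed and moved to fresh YPD medium, and sampled on 17 arrays up to 150 min. The cdc28 courses were cultures E (16 arrays up to 160 min) and B (16 arrays up to 225 min) of BY4741 cells with the temperature-sensitive allele cdc28-13 of the cyclin-dependent kinase, held for 3 h at high temperature and released by mixing with cold medium. On every array the synchronized cells were compared with unarrested mid-log cells of the same strain. All values are therefore log2 ratios to mid-log cells, where 0 means the mid-log level, 1 means 2-fold more and -1 means 2-fold less. Strain, arrest, temperature, change of medium and culture differ together between the alpha-factor and cdc28 courses and cannot be told apart.

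Glycerol is the main compatible solute of yeast, and its synthesis also reoxidizes the NADH left over from growth. Glycerol 3-phosphate dehydrogenase, encoded by GPD1 and its paralog GPD2, turns dihydroxyacetone phosphate into glycerol 3-phosphate, which a phosphatase then converts to glycerol. GPD1 is known for its induction by the HOG osmotic stress pathway, and GPD2 for its role in redox balance without oxygen. GUT1, the glycerol kinase, and GUT2, the mitochondrial glycerol 3-phosphate dehydrogenase, run the path of glycerol use. STL1 is a proton symporter that takes glycerol up, and FPS1 is the channel through which it leaves the cell.

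Each array gave 4189 to 6110 values, and the number of arrays limits the precision. As a check of the labels, BAR1 had values on 0 of 17 alpha-factor arrays and on 32 of 32 cdc28 arrays, and the mating gene AGA1 stood at 5.37 after alpha factor at 0 min, against -0.29 in culture E and 1.47 in culture B. One array stands apart, culture B at 135 min, with 4189 values and the widest spread (interquartile range 1.17). Only GPD2 and FPS1 had a value on it. Each course is 1 culture with 1 array per time, so replicate error comes from the pairs of cdc28 cultures at 5 shared times (0, 30, 60, 90 and 120 min). The cell cycle periods fitted below differed, with 54 min after alpha factor, 92 min in culture E and 120 min in culture B. Equal times after release are thus not equal cell cycle phases. The spread of these pairs, and every comparison between courses at shared times, includes that mismatch, whose size was not tested.

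GPD1 (YDL022W), the osmotic isoform of the synthesis enzyme, had the widest range of the 6 genes in every course. In culture E it stood at 0.68 at 0 min, -2.00 at 10 min, -4.13 at 20 min, -3.81 at 30 min, -2.96 at 40 min, -1.64 at 60 min, -0.71 at 90 min and -0.27 at 120 min. In culture B it stood at -0.52 at 0 min, -2.47 at 15 min, -4.52 at 30 min, -4.12 at 45 min, -2.94 at 60 min, -2.82 at 90 min and -0.98 at 120 min. Both cultures were thus near the mid-log level at the arrest, lost most of the transcript within 30 min and regained it slowly. The lowest value minus that at 0 min was -4.81 in culture E (27.97-fold lower) and -3.997 in culture B (15.97-fold lower). GPD1 was back within 1 log2 unit of mid-log cells at 80 min in culture E, 60 min after its lowest value, and at 120 min in culture B, 90 min after its lowest value. The mean over both cultures was -4.17 ± 0.50 at 30 min against 0.08 ± 0.85 at 0 min (SD, n = 2), a difference of -4.25 ± 0.71 (SE), for which no test is given because GPD1 was picked for it. Of all genes tested in that contrast, 5.32% passed limma at an adjusted p under 0.05.

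After alpha factor GPD1 was high at the arrest and near the mid-log level later. It stood at 3.15 at 0 min, 1.79 at 10 min, -0.39 at 15 min, -0.90 at 20 min, -0.40 at 30 min and -1.14 at 40 min, its lowest value. From 60 min on it stayed between -0.21 and 0.78 on 10 arrays, with a median of 0.24. The lowest value minus that at 0 min was -4.30 (19.6-fold lower), between those of the cdc28 cultures, but the lowest level lay 1.14 below mid-log cells and not over 4 below them. By range, GPD1 ranked 58 of 5359 genes in the alpha-factor course, 13 of 5717 in culture E and 36 of 5598 in culture B. It was picked for its fall in the cdc28 cultures, so its ranks in cultures E and B are no evidence.

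**Figure D1:**
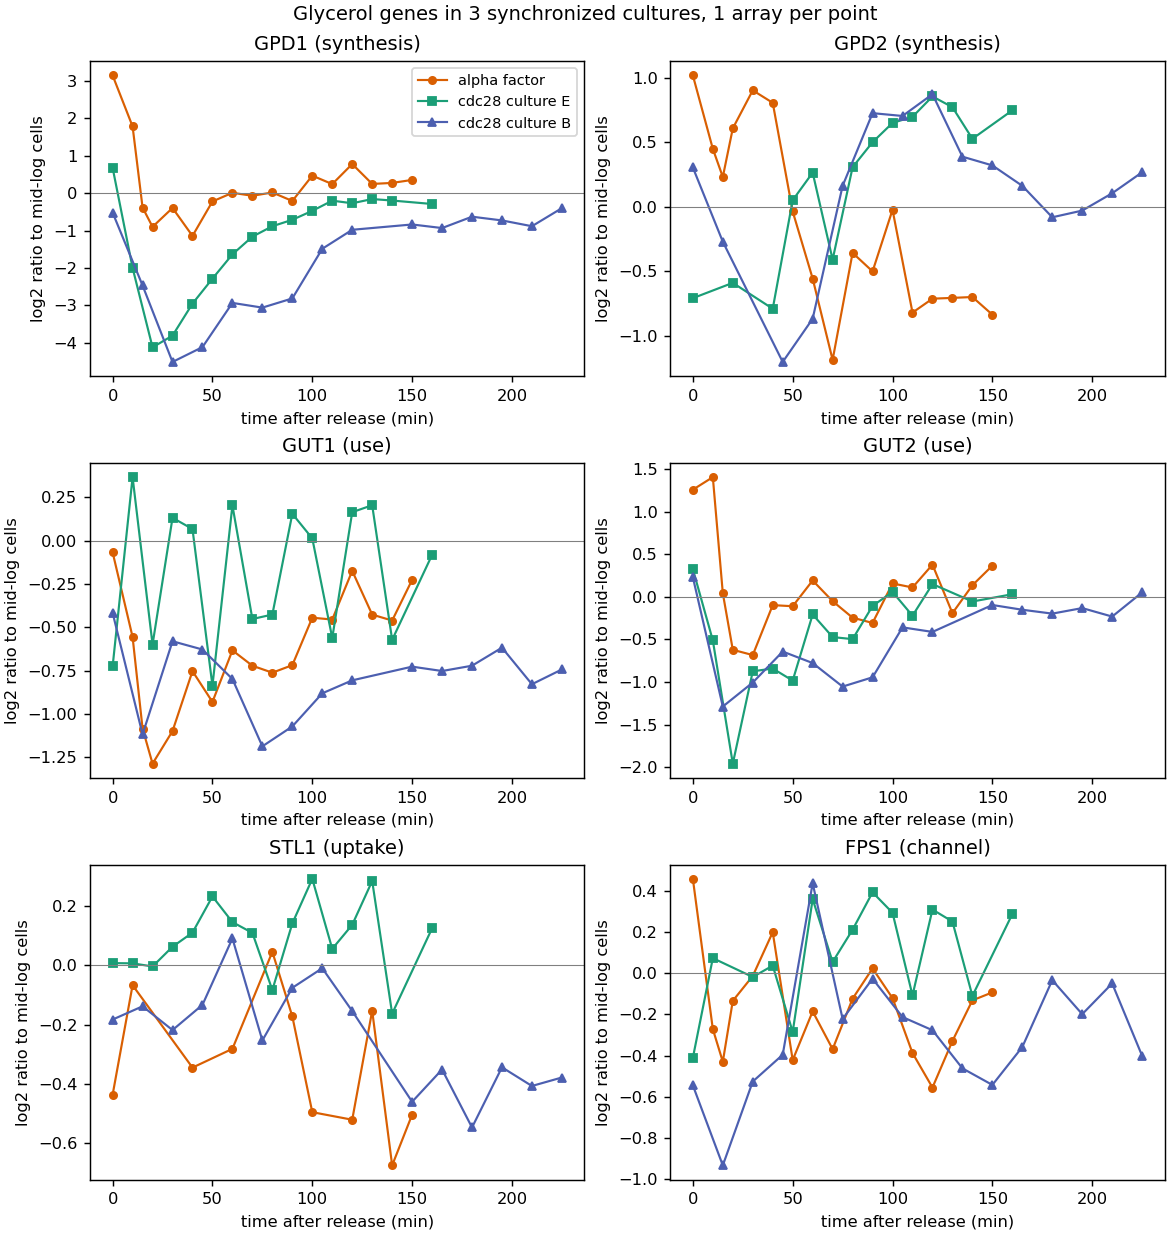
Log2 ratio to mid-log cells (vertical axis) against minutes after release (horizontal axis) for each of the 6 genes, 1 array per point, in the alpha-factor course and cdc28 cultures E and B; the vertical scale differs between panels. GPD1 reaches -4.13 in culture E and -4.52 in culture B, against -1.14 after alpha factor, and at 90 and 120 min GPD2 lies below 0 after alpha factor and above 0 in both cdc28 cultures.

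GPD2 (YOL059W), the redox isoform, followed a course of its own. After alpha factor it was above the mid-log level on 6 of 6 arrays between 0 and 40 min (0.23 to 1.02, median 0.71) and below it on 10 of 10 arrays from 60 min on (-1.19 to -0.02, median -0.70). The array at 50 min, which lies between these windows, had -0.04. How many other genes separate in this way was not counted. In culture E it was below 0 on the 3 arrays measured up to 40 min (-0.79 to -0.59) and above 0 on 9 of 10 arrays from 60 min on, with 0.86 at 120 min. In culture B it had 0.31 at 0 min, -1.20 at 45 min, -0.87 at 60 min, 0.73 at 90 min, 0.87 at 120 min and 0.27 at 225 min. Both cdc28 cultures thus had their lowest GPD2 value at 40 or 45 min and their highest at 120 min, while the alpha-factor culture was high first and low later. The array at 30 min had no value for GPD2 in either cdc28 culture. GPD1 and GPD2 correlated over arrays with Pearson r = 0.13 after alpha factor (n = 17), 0.55 in culture E (n = 14) and 0.55 in culture B (n = 14), a description over time points of 1 culture each. Whether probes of these paralogs bind each other's transcripts was not tested.

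On the side of glycerol use, GUT2 (YIL155C) had a time course much like that of GPD1. It stood at 1.26 at 0 min, 1.40 at 10 min, 0.04 at 15 min and -0.68 at 30 min after alpha factor, its lowest value there. In culture E it had 0.33 at 0 min, -0.51 at 10 min, -1.96 at 20 min and -0.87 at 30 min, and in culture B 0.23 at 0 min, -1.29 at 15 min and -1.005 at 30 min. All 3 cultures therefore began above the mid-log level and reached their lowest GUT2 value within 30 min of release. The lowest value minus that at 0 min was -1.94 after alpha factor (3.83-fold lower), -2.28 in culture E (4.86-fold lower) and -1.52 in culture B (2.86-fold lower). GUT2 and GPD1 correlated with r = 0.87 over 17 alpha-factor arrays, 0.90 over 15 arrays of culture E and 0.82 over 15 arrays of culture B. The next highest r of a pair of the 6 genes in any course was 0.746, for GUT1 and FPS1 over 15 arrays of culture E. It was followed by 0.71 for GPD1 and GUT1 over 17 alpha-factor arrays. GUT1 and FPS1 had r = 0.14 after alpha factor and -0.07 in culture B. In culture E the values of both split by array number, as given below.

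GUT1 (YHL032C), the kinase of the same path, was below the mid-log level on all 17 alpha-factor arrays, from -1.29 at 20 min to -0.07 at 0 min with a median of -0.63. It was also below on all 15 measured arrays of culture B, from -1.19 to -0.42 with a median of -0.75. In culture E it was above 0 on 8 of 16 arrays, from -0.84 to 0.37. The values of culture E split by the array numbers in the sample titles: the 10 arrays numbered 6 to 12 averaged 0.08 ± 0.22 (SD, -0.45 to 0.37), against -0.62 ± 0.14 (-0.84 to -0.43) on the 6 arrays numbered 33 to 76, which were those at 0, 20, 50, 80, 110 and 140 min. The runs overlap only between -0.45 at 70 min and -0.43 at 80 min, and arrays 33 to 76 lie within the range of culture B. Between the runs, with a linear time trend, a cosine and a sine in the fit, GUT1 differed by 0.70 ± 0.10 (SE), the 153rd largest of 5717 differences. This split was singled out after the GUT1 values were seen and 24.6% of all genes passed it in limma, so it is a feature of many genes on these arrays. Its part in the GUT1 values was not tested beyond this.

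**Figure D2:**
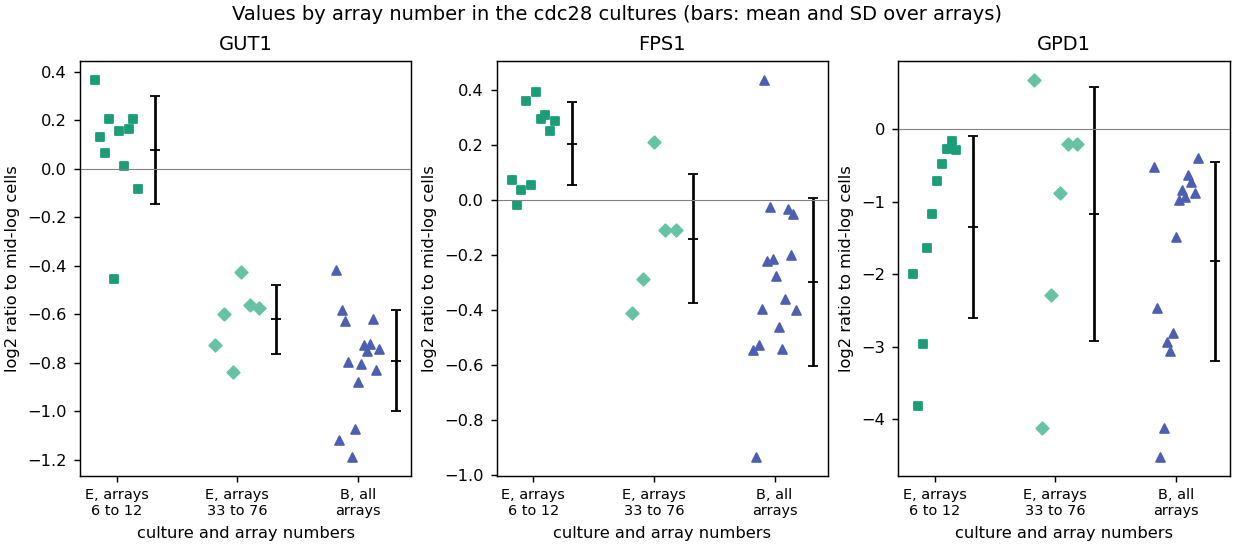
Log2 ratio to mid-log cells (vertical axis) of GUT1, FPS1 and GPD1 in cdc28 culture E, split by the numbers of its arrays, and in culture B; points are arrays in time order and bars give the mean and SD over arrays. In culture E, GUT1 averages 0.08 on arrays 6 to 12 and -0.62 on arrays 33 to 76, and GPD1 averages -1.35 and -1.17.

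The transporter genes kept close to the mid-log level. STL1 (YDR536W), the symporter, ranged from -0.67 to 0.05 after alpha factor (median -0.34, 11 of 17 arrays), from -0.16 to 0.29 in culture E (median 0.11, 16 arrays) and from -0.55 to 0.09 in culture B (median -0.22, 15 arrays). It never lay as much as 1 log2 unit from mid-log cells, and its range ranked 5486 of 5717 in culture E and 4858 of 5598 in culture B. STL1 had too few values in the alpha-factor course to be fitted there.

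FPS1 (YLL043W), the glycerol channel, moved by small amounts that differed between courses. After alpha factor it stood at 0.46 at 0 min, -0.43 at 15 min, 0.20 at 40 min, -0.42 at 50 min, 0.02 at 90 min and -0.56 at 120 min. In culture E it ranged from -0.41 at 0 min to 0.39 at 90 min, and in culture B from -0.93 at 15 min to 0.44 at 60 min. The alpha-factor culture thus had its highest value at the arrest, where both cdc28 cultures lay below mid-log cells. In culture E the arrays numbered 6 to 12 averaged 0.20 ± 0.15 (SD, n = 10), against -0.14 ± 0.23 (n = 5) on those numbered 33 to 76, so the FPS1 values there move with the array numbers as well.

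To ask whether the genes oscillate with the cell cycle, a cosine and a sine were fitted to each course with limma, next to a linear time trend. The period was the one that best described 63 cell cycle marker genes: 54 min after alpha factor, 92 min in culture E and 120 min in culture B, so the courses covered 2.78, 1.74 and 1.88 cycles. Of all genes tested, 27.7% passed at an adjusted p under 0.05 after alpha factor, 3.20% in culture E and 13.1% in culture B. Of the 4 glycerol genes tested in each course 0 passed, with 3, 0 and 1 at an unadjusted p under 0.05. GPD2 came nearest, with an amplitude (fitted mean to fitted peak) of 0.38 ± 0.11 (SE, adjusted p = 0.0516) after alpha factor, 0.16 ± 0.10 (0.700) in culture E and 0.52 ± 0.14 (0.0509) in culture B. With a quadratic trend GPD2 passed in limma after alpha factor (adjusted p = 0.0273) and in culture B (0.00576), and with no trend it had adjusted p = 0.899 and 0.0863. GUT2 had an amplitude of 0.48 ± 0.15 after alpha factor (limma adjusted p = 0.0627), 0.31 ± 0.17 in culture E (0.611) and 0.21 ± 0.13 in culture B (0.572). After alpha factor GUT2 had a limma adjusted p of 0.0229 with a quadratic trend and 0.0272 with quantile normalization. GUT1 had 0.25 ± 0.09 after alpha factor (limma adjusted p = 0.106), and GPD1 0.69 ± 0.31 (0.202). For GPD2, GUT2 and GUT1 single arrays decided the call. GPD2 passed in limma after alpha factor without the array at 0, 90, 120 or 130 min (adjusted p from 0.0268 to 0.139 over the 17 arrays left out in turn) and in culture B without that at 135, 165, 210 or 225 min (0.0203 to 0.139 over 16). GUT2 passed after alpha factor without the array at 10, 50, 110 or 140 min, with a lowest limma adjusted p of 0.0390, and GUT1 without that at 50 min (0.0447).

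FPS1 was picked for its phase, so its fits are a description. Its amplitude was 0.24 ± 0.07 (SE) after alpha factor with the peak at 39.3 of 54 min, and 0.32 ± 0.08 in culture B with the peak at 74.8 of 120 min. Between these courses, 540 genes were periodic in both, and their peaks differed by a median of 3.05% of a period once the mean offset was removed. For FPS1 the difference, culture B minus alpha factor, was -18.2% of a period, and 0.370% of those genes lay farther off. FPS1 was picked for this shift, so its place among those genes is no evidence. The same difference was 15.3% for GPD2, 12.3% for GUT1, -11.6% for GPD1 and -4.38% for GUT2, which were not called periodic in either course. In culture E the amplitude of FPS1 was 0.07 ± 0.08, and 0.09 ± 0.06 with the run of array numbers in the fit, too small against its error to give a phase. With a period 10% longer the alpha-factor amplitude was 0.16 ± 0.08.

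The change since the arrest was tested after alpha factor with a limma fit of 1 mean per arrest and time over 15 arrays, in which the single alpha-factor arrays are assumed to vary like the cdc28 pairs. Over all genes 0.966% passed at 30 min, 0.989% at 60 min, 1.17% at 90 min and 0.717% at 120 min. Of the glycerol genes other than FPS1, 4 were tested at 30 min and 5 at each later time, and 0 passed at any of these times, with 2, 2, 3 and 2 at an unadjusted p under 0.05. GPD1 changed by -3.55 ± 1.01 (SE) at 30 min (limma adjusted p = 0.194), -3.14 at 60 min (0.251), -3.36 at 90 min (0.240) and -2.37 at 120 min (0.592). With the culture as a replicate block, which takes out the steady difference between cultures E and B, GPD1 fell at 30 min (limma adjusted p = 0.0127), 60 min (0.0211) and 90 min (0.0143), and had 0.0624 at 120 min. The change of GUT2 at 30 min was -1.94 ± 0.48 (limma adjusted p = 0.128), and 0.0303 with the replicate block. The replicate block also raised the number of calls over all genes, as given in the last section, so the shares above do not apply to it. The alpha-factor array names end in the letter B at 0, 60 and 120 min and in T at 30 and 90 min. With this letter as a covariate the GPD1 change at 30 min was -2.34 (limma adjusted p = 0.131) and that of GUT2 was -1.41 (0.0725). The letter term comes only from the cdc28 pairs at 30 to 120 min, where culture E has B and culture B has T. It cannot separate the letter from the difference between these cultures. With quantile normalization the GPD1 changes were -2.12 at 30 min, -1.72 at 60 min, -1.97 at 90 min and -0.85 at 120 min, with limma adjusted p from 0.311 to 0.977.

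GPD2 changed by -0.12 ± 0.62 at 30 min, -1.58 ± 0.62 at 60 min, -1.52 ± 0.62 at 90 min and -1.73 ± 0.62 at 120 min after alpha factor, with limma adjusted p from 0.432 to 0.975. GUT1 changed by -1.03 ± 0.73 at 30 min and STL1 by 0.16 ± 0.34 at 60 min, neither of which passed.

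The arrests were then compared time by time, as alpha factor minus the mean of the cdc28 cultures. Over all genes 3.65% passed at 0 min, 2.32% at 30 min, 0.413% at 60 min, 0.0388% at 90 min and 0.0358% at 120 min. For GPD2, GUT1, GUT2 and STL1 limma called 0 of 4 at 0 min, 0 of 2 at 30 min and 0 of 4 at each later time, with 1, 0, 0, 0 and 1 at an unadjusted p under 0.05. At 0 min GPD2 stood at 1.02 in the alpha-factor culture and at -0.20 ± 0.72 (SD, n = 2) in cultures E and B, a difference of 1.22 ± 0.54 (SE, limma adjusted p = 0.221). At 120 min GPD2 stood at -0.71 after alpha factor against 0.87 ± 0.01 (n = 2), a difference of -1.58 ± 0.54 (limma adjusted p = 0.768). The sign of the GPD2 estimate was thus opposite at the arrest and at 120 min, though neither passed. At 0 min GUT2 stood at 1.26 after alpha factor against 0.28 ± 0.07 (n = 2), a difference of 0.98 ± 0.42 (limma adjusted p = 0.205).

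Without a test, GPD1 stood above the cdc28 mean after alpha factor at every shared time, by 3.07 ± 0.87 (SE) at 0 min, 3.77 at 30 min, 2.30 at 60 min, 1.56 at 90 min and 1.40 at 120 min. FPS1 stood 0.94 ± 0.36 above it at 0 min and gave differences of -0.59 at 60 min and -0.57 at 120 min. At 0 min the alpha-factor array carries the letter B and both cdc28 arrays T, so letter and arrest cannot be told apart there. The letter term of this fit comes only from the cdc28 pairs at 30 to 120 min, where culture E has B and culture B has T. It is thus the difference between these cultures, and no separate measure of the letter on alpha-factor arrays. With this term as a covariate the GPD1 difference was 1.87 at 0 min and 0.80 at 120 min. With quantile normalization the GPD1 difference was 1.72 at 0 min.

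**Figure D3:**
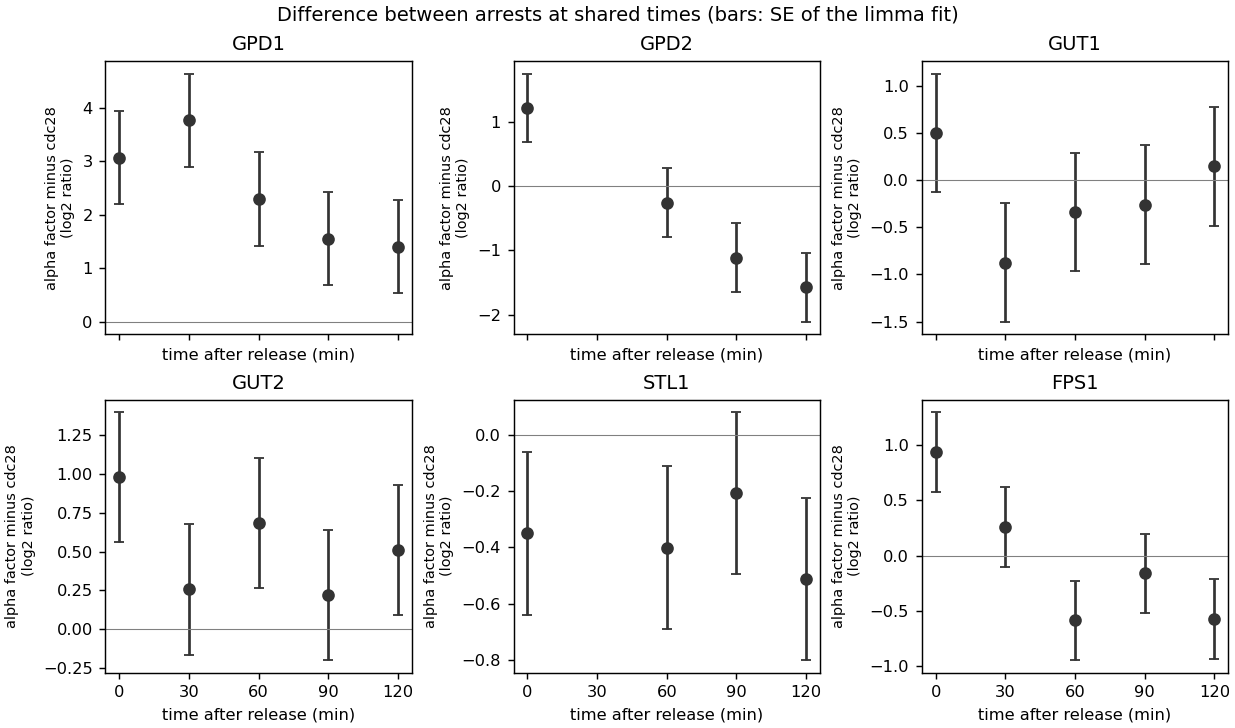
Alpha factor minus the mean of the cdc28 cultures in log2 ratio (vertical axis, scale differs between panels) at the 5 shared times (horizontal axis, min); points are limma estimates and bars their SE. GPD1 lies above 0 at all 5 times, and GPD2 has 1.22 at 0 min and -1.58 at 120 min; GPD2 and STL1 have no estimate at 30 min.

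Cultures E and B could be compared directly. GPD1 was picked for its fall and not for this contrast, but both use the same cdc28 arrays. The GPD1 difference is therefore not independent of its choice and is given without a test. Over the 5 shared times GPD1 was higher in culture E, with a mean of -1.15 against -2.36 in culture B. The difference was 1.204 ± 0.21 (SE), and GPD1 was higher in culture E at 5 of 5 times. The GPD1 gap was widest at 90 min, with -0.71 in culture E against -2.82 in culture B. With quantile normalization the GPD1 difference was 0.77. Over all genes 5.39% passed in limma. FPS1, GPD2, GUT1, GUT2 and STL1 did not pass, and of these GUT1 and GUT2 had an unadjusted p under 0.05. Each side of this comparison is 1 culture, so a p measures the spread over time points of a single pair of cultures, whose deviations are correlated between times. GUT1 was higher in culture E by 0.72 ± 0.22 (limma adjusted p = 0.0822), and by 0.98 (0.00325) without the 0 min arrays. GUT2 was higher by 0.44 ± 0.15 (limma adjusted p = 0.101), and by 0.52 (0.0240) without them. Leaving out the 0 min arrays raised the calls over all genes from 302 to 1917. At 30 to 120 min every culture E array has a number from 6 to 12 and the letter B, while every culture B array has the letter T, so culture, letter and number cannot be told apart at these times.

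The other genes of glycerol metabolism and osmotic signalling were read from 7 lists, of which 67 of 68 genes were on the array. In the cdc28 change at 30 min 63 were tested: 1 rose and 14 fell, where 5.32% of all genes passed in limma. With the culture as a replicate block 610 genes passed, against 296 without it, and with quantile normalization 90. The rises and falls below are those without the block. The array letter, where used below, stands for the difference between cultures E and B at 30 to 120 min.

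Genes of the osmotic and general stress list, many of them known targets of Hog1, Msn2 and Msn4, were lower at 30 min in the cdc28 cultures. Of 15 tested, 10 fell and 0 rose, all 15 changes were negative, and their median was -2.23, against 0.0025 over all genes. The stress gene DDR2 had -2.11 in culture E and -2.37 in culture B at 30 min, against 3.32 and 1.65 at 0 min, a change of -4.72 ± 0.50 (SE, limma adjusted p = 0.00290). TFS1, for an inhibitor of carboxypeptidase Y, changed by -3.44 ± 0.40 and SIP18 by -3.24 ± 0.35, where culture E had no value for SIP18 at 0 min. With the replicate block 13 of 15 fell, with the array letter as a covariate also 13, and with quantile normalization 6. Several of these genes were known from these arrays to fall when the list was drawn up, so the list is no independent evidence of a direction.

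Next to GPD1 and GPD2 in the path, the glycerol 3-phosphatase gene GPP2 fell by 1.80 on the log2 scale (SE 0.39, limma adjusted p = 0.0325), to 0.32 in culture E and -0.45 in culture B, against 1.15 and 2.32 at 0 min. GCY1, for an enzyme of the alternative route through dihydroxyacetone, fell by 2.41 (SE 0.26, limma adjusted p = 0.00290). The other phosphatase gene GPP1 changed by -0.12 ± 0.39, and the dihydroxyacetone kinase genes DAK1 and DAK2 by -0.94 ± 0.50 and 0.12 ± 0.28, none of which passed. With quantile normalization GCY1 alone of these 5 passed, and with the array letter as a covariate DAK1 passed too (-1.38, limma adjusted p = 0.0194).

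Upstream of GPD1, 1 of 17 HOG signalling genes rose and 0 fell, with a median of 0.06. This count is near the share over all genes, 5.32%, so it is no result about the pathway. The riser was SHO1, for a membrane osmosensor, with 1.04 ± 0.23 (SE, limma adjusted p = 0.0332), and it did not pass with quantile normalization. MSB2, for a mucin that acts with Sho1, had the largest estimate, 2.00 ± 0.50 (limma adjusted p = 0.0540), and passed with the replicate block and with the array letter. The kinase gene HOG1 itself changed by -0.07 ± 0.24. limma called 0 of 4 HOG transcription factor genes, 0 of 3 genes of glycerol uptake and channel regulation and 0 of 3 genes that carry glycerol 3-phosphate into lipids, with 0, 1 and 1 at an unadjusted p under 0.05. With the replicate block GUP2, from the list of glycerol uptake and channel regulation, fell. Of 16 genes for growth on non-fermentable carbon, the setting in which GUT1 and GUT2 are known to be induced, 2 fell: CIT1, for mitochondrial citrate synthase, with a change of -2.80 ± 0.40 (SE, limma adjusted p = 0.00600), and ACS1, for acetyl-CoA synthetase, with -1.23 ± 0.27 (0.0353). With quantile normalization ACS1 did not pass (-0.92, limma adjusted p = 0.111).

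At 30 min after alpha factor release 56 genes of these lists were tested, and 0 rose and 3 fell in limma, where 0.966% of all genes passed. TPS2, for trehalose 6-phosphate phosphatase, had -0.85 at 30 min against 3.31 at 0 min, a change of -4.16 ± 0.55 (SE, adjusted p = 0.0210). HOR7, a gene of high-osmolarity response, changed by -2.46 ± 0.44 (adjusted p = 0.0361), and GCY1 by -2.10 ± 0.37 (0.0356). GCY1 and HOR7 were thus called in both kinds of release, but with quantile normalization neither passed after alpha factor (limma adjusted p = 0.212 and 0.0938). The median over the 14 stress targets tested was -1.78, against -0.02 over all genes, and 13 of the 14 changes were negative. With the replicate block 5 of these 14 fell, where 132 of 5071 genes passed, and with quantile normalization 1, where 16 of 5071 passed.

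**Figure D4:**
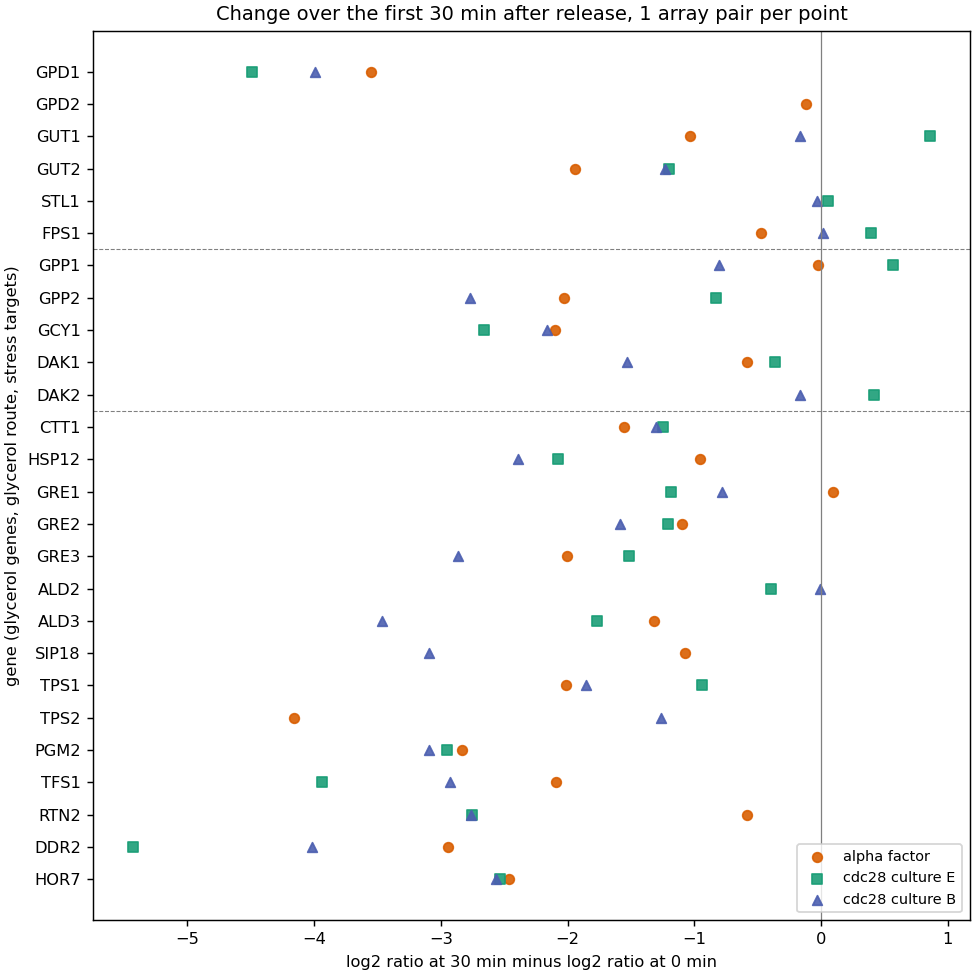
Log2 ratio at 30 min minus that at 0 min (horizontal axis) in the alpha-factor course and cdc28 cultures E and B, 1 pair of arrays per point, for the 6 glycerol genes (top), the phosphatase and dihydroxyacetone genes (middle) and the 15 tested stress targets (bottom); a missing point had no value on 1 of the arrays. GPD1 and DDR2 lie below -2 in all 3 cultures, and STL1 and FPS1 stay within 0.5 of 0.

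As a description, the genes most like each glycerol gene were ranked by Pearson r over all arrays with values, which share their cultures and their mid-log RNA. GPD1 was most like DCS1 (r = 0.93 over 48 arrays), RVS167 (0.92) and MRP8 (0.92). Within courses the r of GPD1 with DCS1, whose product is known from mRNA cap metabolism, was 0.86 after alpha factor, 0.98 in culture E and 0.97 in culture B. GUT2 was most like YNL134C (0.89 over 47 arrays), CAP2 and YGR127W. GUT1 was most like PYC2, for pyruvate carboxylase (0.86 over 48 arrays), PTC2 and PDA1. The r of GUT1 with the protein phosphatase gene PTC2 was 0.94 in culture E, whose arrays split by number, against 0.24 in culture B. GPD2 had weaker matches, with the proteasome gene PRE2 first (0.67 over 46 arrays), then UFD1 and SHE10. STL1 was most like YPQ1 (0.83 over 40 arrays), ATR1 and TPN1, all genes for membrane transporters. Its r with YPQ1 was lower within each course, with 0.54 after alpha factor, 0.25 in culture E and 0.76 in culture B. FPS1 was most like VMA16, for a subunit of the vacuolar proton pump (0.78 over 48 arrays), GND1 and SPE1.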

How the data were processed

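The deposited values are log2 ratios, by the authors, of synchronized cells (Cy5) over mid-log cells (Cy3) on 2-colour oligonucleotide arrays, with the dyes taken per the labels. The log base is not stated and was taken as log2, and array medians lay between -0.071 and 0.0215. The lowest correlation between 2 arrays was -0.295. How arrays were scanned, background-corrected, filtered and normalized is not given in the sources used here.

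Before any fit the median of each array was set to 0 and the probes of a gene were averaged (29 genes had several). Symbols and locus tags came from the platform annotation and RefSeq. Fits used limma 3.58.1 in R 4.3.3, genes measured on 80% or more of the arrays, two-sided tests and Benjamini-Hochberg adjustment over all genes, and were tested on simulated data. The period of a course was the whole minute between 40 and 160 at which the median gain in R2 over 63 marker genes was highest. The fit at shared times had 10 groups and 15 arrays. Cultures E and B were each followed through time, so samples of the same letter are paired: deviations of culture B from the pair mean correlated between times with r from -0.07 to 0.87.

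The members and lists were chosen with earlier results of these data known. The text names the 6 glycerol genes, up to 3 called genes of each list with the largest change, the 3 genes most like each member (at least 40 arrays) and label checks. DAK1, DAK2, GPP1, MSB2, HOG1 and GUP2 were added after their values were seen. Alternatives were other periods, trends, normalizations, filters, the array letter, the replicate block and arrays left out. The run of array numbers, culture B without 135 min, single arrays left out and the list counts under other settings were added after the data were seen.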

Additional observations from a re-analysis of the deposited data

Results flagged for a closer look

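Some changes since the arrest ran in one direction after alpha factor and in the other in both cdc28 cultures, and these differences of direction were not tested. GPD2 changed by -1.52 after alpha factor at 90 min, against 1.21 in culture E and 0.42 in culture B. At 120 min GPD2 changed by -1.73 after alpha factor, against 1.56 in culture E and 0.57 in culture B. FPS1 changed by -0.47 after alpha factor at 30 min, against 0.39 in culture E and 0.02 in culture B, and by -0.64 at 60 min, against 0.77 and 0.98. At 90 min FPS1 changed by -0.44 after alpha factor, against 0.81 in culture E and 0.52 in culture B, and at 120 min by -1.02, against 0.72 and 0.27. STL1 changed by -0.08 after alpha factor at 120 min, against 0.13 in culture E and 0.03 in culture B. All changes of 1 culture share its 0 min array. In culture E this array is numbered 76, and those at 30, 60, 90 and 120 min belong to the run of lower numbers. Every culture E change here thus crosses the runs. In the fit given above FPS1 was higher on the lower numbers by 0.34 ± 0.09 (SE). GPD2 differed by -0.03 ± 0.17 and STL1 by 0.13 ± 0.07. The part of the runs in these changes was not tested. FPS1 was picked for a phase shift between courses, so its changes here are no independent evidence.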

How the results depend on the processing

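Counts of called genes moved by over 1.5 times under several settings. Periodic genes numbered 1485 after alpha factor, 491 with a period 10% shorter and 1081 to 1599 with 1 array left out. In culture B they numbered 731, 344 with a period 10% shorter and 544 to 982 with 1 array left out. In culture E they numbered 183, 3 with a period 10% shorter, 101 with no trend, 296 with a quadratic trend, 325 with quantile normalization, 462 at the period of culture B and 69 to 270 with 1 array left out (69 without the 40 min array, 110 without that of 60 min, 85 without that of 100 min and 120 without that of 120 min). The cdc28 change at 30 min called 296 genes, 610 with the culture as a replicate block, 644 with the array letter and 90 with quantile normalization. Alpha-factor changes summed over 4 times gave 204, and 453, 609 and 65 under the same settings. Arrest differences summed over 5 times gave 348, and 1214, 1157 and 182. Cultures E and B differed in 302 genes, and in 1917 without the 0 min arrays. The causes were not tested. In the fits at shared times the array letter term is the difference between cultures E and B at 30 to 120 min. Some uncalled changes of the 6 genes changed sign. With the array letter they were GPD2 at 30 min (0.18) and GUT1 at 90 min (0.33) after alpha factor, and the arrest differences of GUT1 at 0, 90 and 120 min (-0.47, 0.23 and -0.34) and FPS1 at 90 min (0.0197). With quantile normalization they were GPD2 at 30 min after alpha factor (0.25), the arrest difference of GUT2 at 30 min (-0.0392) and culture E minus culture B for GPD2 (0.16). Of the cdc28 changes, which carry no test, those of GUT1 at 30, 60, 90 and 120 min were -0.14, -0.22, -0.38 and -0.24 with the array letter, against 0.35, 0.27, 0.11 and 0.25 without it, and those of STL1 at 30 and 120 min were -0.10 and -0.03, against 0.01 and 0.08. Among the tested alpha-factor changes and arrest differences, the replicate block changed the calls of GPD1 and GUT2 given above and no other. Leaving out culture B or E left no residual degrees of freedom, so these gave values and no test, some of them of opposite sign for GPD2, GUT1, GUT2, STL1 and FPS1.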
